A study of Mus musculus with 9 samples.

Results

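Foxc1, Foxc2, Foxd1, Tbx18, Aldh1a2, Slc22a6, Slc13a4, Lum, Dcn and Ogn are genes active in the meninges, the membranes around the brain, or in the fibroblasts that build them. They were followed by their symbols through RNA sequencing of the mouse medial prefrontal cortex, and are 10 of the 36172 features of the deposited count table. All 10 were found there, and all 10 passed the filter on low counts that left 15144 genes. The genes were chosen on fold changes and differences between single libraries that had been seen earlier in these same 9 libraries. Their levels and fold changes are therefore given as a description, without p-values, and support nothing about the set.

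The tissue came from DBA2/J mice, an inbred strain with no other allele named in the labels, and their age is not given in the sources used here. Non-stressed mice (NS) received saline. Mice put through 5 days of social defeat, in which a mouse meets an aggressor again and again, and typed by the submitters as SA:ANH, received either vehicle (SA:ANH-vehicle) or an inhibitor of KDM5C (SA:ANH-KDM5Ci), an enzyme that removes methyl groups from lysine 4 of histone H3. The titles speak of vehicle where the treatment labels speak of saline, and the meaning of SA:ANH, the inhibitor's identity and its dose are not given in the sources used here. Each group had 3 libraries, and nothing states that they came from separate animals, so the spread between them may be technical.

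As background, the meninges form from mesenchyme of the neural crest and mesoderm. Foxc1 and Foxc2, which bind DNA through a forkhead domain, are needed for that mesenchyme, and loss of Foxc1 in mice leaves the forebrain meninges incomplete. The fibroblasts of the pia and arachnoid make retinoic acid, which acts on the cortex beneath them, carry anion transporters that move organic acids and sulfate between brain, cerebrospinal fluid and blood, and lay down a matrix of collagens bound by small leucine-rich proteoglycans. A piece of frontal cortex cut for RNA holds some pia, some vessels that run in from it and variable amounts of attached membrane. In such a bulk sample, fewer cells of a type and less RNA per cell cannot be told apart.

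The bases just before the start sites of the genes are shown so that their starts can be compared letter by letter. RefSeq promoter windows on GRCm38.p6, the assembly that mm10 names, were at hand for 7 of the 10 genes, Foxc1, Foxd1, Tbx18, Aldh1a2, Slc22a6, Slc13a4 and Ogn. The last 120 bases upstream are printed for the 5 of these that hold a CCAAT motif there and for Ogn, which has none. For Ogn and Slc22a6, the bases just after the RefSeq start were not found in any GENCODE transcript of the gene. Their windows therefore rest on the RefSeq start alone, and so do the motif matches given for them. Letters in capitals mark CCAAT or, for the other strand, ATTGG, and each run reads 5′ to 3′ toward the gene.
Foxc1: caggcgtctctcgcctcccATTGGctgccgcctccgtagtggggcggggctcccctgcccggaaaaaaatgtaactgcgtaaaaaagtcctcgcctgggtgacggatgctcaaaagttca
Tbx18: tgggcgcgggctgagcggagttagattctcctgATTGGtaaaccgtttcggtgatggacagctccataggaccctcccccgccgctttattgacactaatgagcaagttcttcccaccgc
Aldh1a2: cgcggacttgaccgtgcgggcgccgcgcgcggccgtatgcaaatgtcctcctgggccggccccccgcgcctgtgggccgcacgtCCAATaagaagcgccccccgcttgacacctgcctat
Slc13a4: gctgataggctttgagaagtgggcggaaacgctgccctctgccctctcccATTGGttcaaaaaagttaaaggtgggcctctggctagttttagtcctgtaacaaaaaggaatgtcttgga
Slc22a6: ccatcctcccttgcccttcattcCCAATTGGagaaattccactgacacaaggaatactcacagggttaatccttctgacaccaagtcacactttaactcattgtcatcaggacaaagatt
Ogn: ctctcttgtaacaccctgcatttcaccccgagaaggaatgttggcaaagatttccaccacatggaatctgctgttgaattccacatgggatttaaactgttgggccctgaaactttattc

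The printed run of Foxc1 is chr13:31806526-31806645 (+ strand), that of Tbx18 chr9:87731261-87731380 (- strand) and that of Aldh1a2 chr9:71215669-71215788 (+ strand). The run of Slc13a4 is chr6:35308127-35308246 (- strand), that of Slc22a6 chr19:8617876-8617995 (+ strand) and that of Ogn chr13:49607895-49608014 (+ strand). Over the full 250 upstream bases, CCAAT on either strand occurred in 6 of the 7 windows, Ogn being the exception, against 33.8% of 32851 RefSeq windows of the same length. In Slc22a6 the forward and reverse letters overlap, so that 1 stretch counts as both. GGAATG, the core that TEAD factors bind, occurred on either strand in 3 of 7 windows (Slc13a4, Ogn and Slc22a6) against 12.6% of all, and GGGCGG, the GC box, in 3 of 7 (Slc13a4, Foxc1 and Foxd1) against 32.7%. TATAAA was found in Ogn alone among the 7 (12.4% of all windows), CAGCTG, an E-box, also in Ogn alone (13%), and GTAAACA, a forkhead core, in none (3.17%). The windows were unlike in base composition. GC content ran from 42.0% in Ogn to 77.6% in Aldh1a2 around a median of 52.4% for all windows, and CpG dinucleotides numbered 0 in Slc22a6, 4 in Ogn, 29 in Foxc1 and 40 in Aldh1a2, with a median of 6. These are matches of letters, and no binding was measured. Nothing is read from the distance between the members' counts and the shares of all windows, and any link to the levels of the genes was not tested.

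Depth ran from 29845097 to 42196472 counts per library, and the common biological coefficient of variation was 6.95%. Some single libraries stood apart. SA:ANH-vehicle replicate 1 had the highest level of its group for 10 of the 10 genes and the highest of all 9 libraries for 9 of them. NS replicate 1 had the lowest level of its group for 9 of the 10. Medians and calls of the 10 genes, and medians of most wider lists, are therefore also given without the library that bears on them. Summed over 10 genes, cortical excitatory neuron markers lay from 5700 to 6400 CPM (counts scaled to library size) in all libraries. That sum does not check where or how evenly the tissue was cut. Striatal neuron markers, given further on, summed to between 233 CPM, in an NS library, and 731 CPM, in an SA:ANH-KDM5Ci library. Kdm5c itself, whose product the inhibitor is meant to block, was at 62.1 ± 0.772 CPM in NS, 63.8 ± 2.94 in SA:ANH-vehicle and 58.3 ± 1.01 in SA:ANH-KDM5Ci (SD, n = 3 libraries each); a protein inhibitor need not alter its mRNA, so this does not check the labels.

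The 4 transcription factors were lower in SA:ANH-KDM5Ci than in SA:ANH-vehicle, at log2 fold changes from -1.45 to -0.91 and a median of -1.10. Their summed level was 15.3 ± 2.03 CPM in NS, 16.8 ± 3.14 in SA:ANH-vehicle and 8.28 ± 0.410 in SA:ANH-KDM5Ci. Levels between groups and log2 fold changes come from edgeR on TMM-scaled counts, with 1 mean per group in 1 fit of 9 libraries, and "called" means an adjusted p under 0.05 over all 15144 genes. All 4 were called lower than SA:ANH-vehicle, where 1.62% of all tested genes were.

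Foxc1 (gene 17300, chromosome 13, 31806646 to 31810635 on GRCm38.p6), the forkhead factor of meningeal mesenchyme, was at 6.11, 8.56 and 8.60 CPM in NS replicates 1, 2 and 3, at 10.1, 7.53 and 7.44 in SA:ANH-vehicle, and at 4.63, 4.14 and 4.36 in SA:ANH-KDM5Ci. The 3 inhibitor libraries were close to each other and lay below all 6 others. Relative to SA:ANH-vehicle the level was 1.92-fold lower, a log2 fold change of -0.94 (SE 0.15), and relative to NS the log2 fold change was -0.82 (SE 0.16).

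Foxc2 (gene 14234, chromosome 8, 121116171 to 121118895), its close relative and a factor of lymphatic and mesenchymal development, was scarcer, with 21 to 101 counts per library. It was at 0.763, 1.45 and 1.54 CPM in NS, at 2.37, 2.07 and 1.56 in SA:ANH-vehicle, and at 0.984, 0.679 and 0.573 in SA:ANH-KDM5Ci. NS replicate 1 lay among the inhibitor libraries, while the vehicle libraries were above all others. The log2 fold change was -1.45 (SE 0.29) from SA:ANH-vehicle and -0.76 (SE 0.31) from NS. The second of these was not called.

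Foxd1 (gene 15229, chromosome 13, 98354245 to 98356705), a forkhead factor of stromal progenitors and pericyte precursors, differed from the rest in NS. Its NS libraries were almost equal, at 2.40, 2.37 and 2.51 CPM, with no low value in replicate 1. SA:ANH-vehicle was at 3.02, 1.99 and 2.30 CPM, and SA:ANH-KDM5Ci at 1.39, 0.808 and 0.896, below all others. Its log2 fold change was -1.26 (SE 0.22) from SA:ANH-vehicle and -1.25 (SE 0.22) from NS.

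Tbx18 (gene 76365, chromosome 9, 87702800 to 87731260), a T-box factor of mural cells and meningeal mesenchyme, was also even in NS, at 3.71, 4.14 and 3.84 CPM. It was at 4.91, 3.67 and 3.38 CPM in SA:ANH-vehicle and at 1.74, 2.56 and 2.11 in SA:ANH-KDM5Ci, and the inhibitor libraries did not overlap either other group. For Tbx18 the log2 fold change was -0.91 (SE 0.17) from SA:ANH-vehicle and -0.86 (SE 0.18) from NS.

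**Figure D1:**
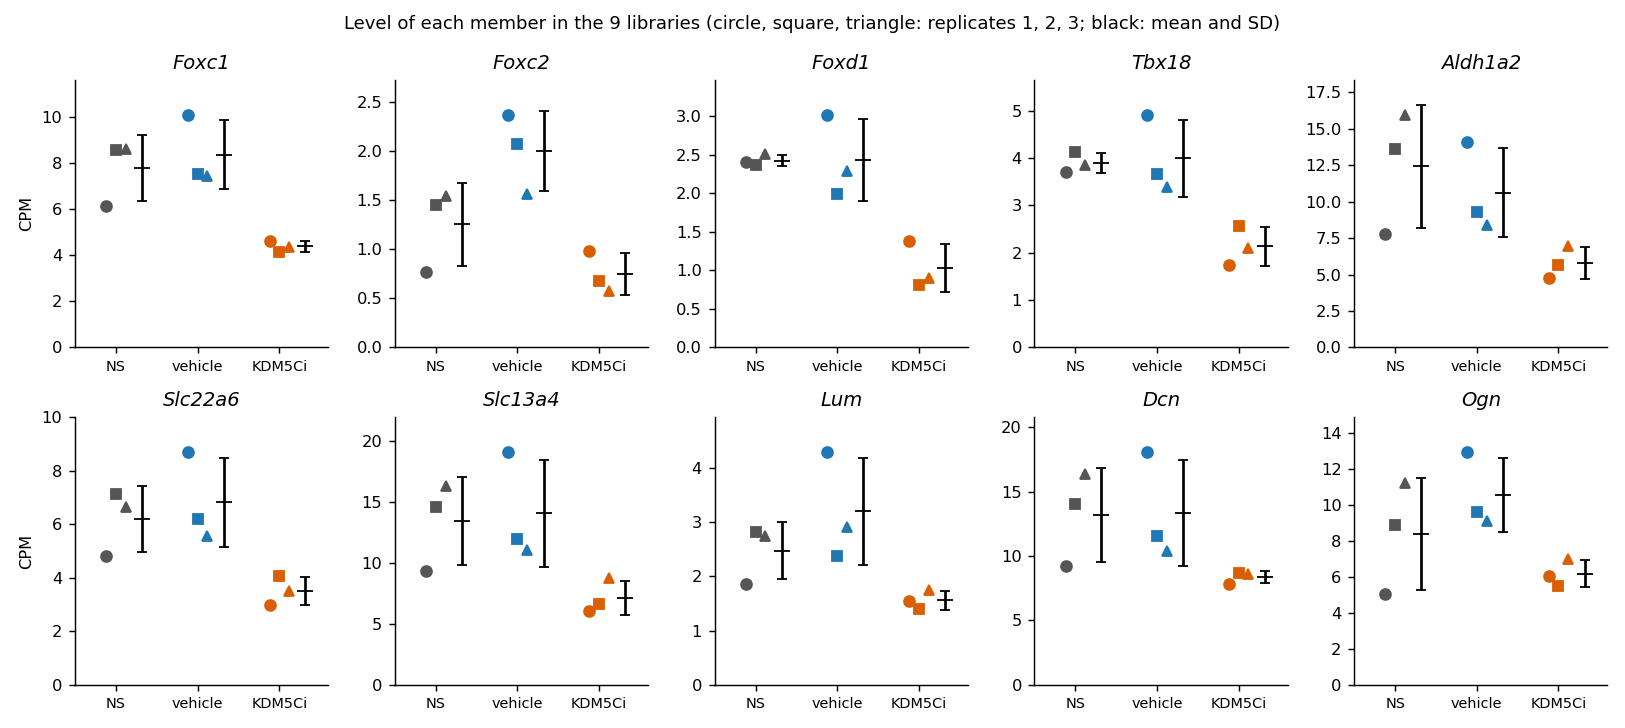
Level in CPM (y axis, from 0) of each of the 10 genes in the 9 libraries by group (x axis: NS, SA:ANH-vehicle, SA:ANH-KDM5Ci); circles, squares and triangles are replicates 1, 2 and 3, and black bars are the mean and SD of 3 libraries. For all 10 genes the 3 SA:ANH-KDM5Ci points lie below the 3 SA:ANH-vehicle points, and the circle of SA:ANH-vehicle, replicate 1, is the highest of its group in every panel.

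The retinoic acid enzyme and the transporters had a median log2 fold change of -0.96 from SA:ANH-vehicle, with larger standard errors. Of the 3, 1 was called lower, where 1.62% of all tested genes were. Their summed level was 32.1 ± 8.97 CPM in NS, 31.5 ± 9.10 in SA:ANH-vehicle and 16.4 ± 2.71 in SA:ANH-KDM5Ci.

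Aldh1a2 (gene 19378, chromosome 9, 71215789 to 71296243), the dehydrogenase that makes retinoic acid from retinaldehyde, was at 7.75, 13.6 and 16.0 CPM in NS, 14.1, 9.33 and 8.42 in SA:ANH-vehicle, and 4.75, 5.66 and 6.94 in SA:ANH-KDM5Ci. NS replicates 1 and 3 were 2.06-fold apart, more than SA:ANH-KDM5Ci was from SA:ANH-vehicle (1.83-fold lower, log2 -0.87, SE 0.31). No library of the inhibitor group reached either other group, yet the difference from NS (log2 -1.09, SE 0.31) was not called by edgeR either. DESeq2 (-1.10, SE 0.34) and edgeR without robust moderation called it.

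Slc22a6 (gene 18399, chromosome 19, 8617996 to 8628299), the organic anion transporter also known as OAT1, was at 4.82, 7.13 and 6.65 CPM in NS, at 8.70, 6.21 and 5.56 in SA:ANH-vehicle, and at 2.99, 4.05 and 3.51 in SA:ANH-KDM5Ci. The inhibitor libraries lay below all others. For this transporter the log2 fold change was -0.96 (SE 0.19) from SA:ANH-vehicle and -0.82 (SE 0.20) from NS, and both were called.

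Slc13a4 (gene 243755, chromosome 6, 35267953 to 35308126), a sodium-dependent sulfate transporter, had 184 to 815 counts per library, the last being the highest count of any of the 10 genes. It was at 9.37, 14.6 and 16.4 CPM in NS, at 19.1, 12 and 11.1 in SA:ANH-vehicle, and at 6.02, 6.63 and 8.74 in SA:ANH-KDM5Ci. Replicate 1 was the low library of NS and the high library of SA:ANH-vehicle. The log2 fold change was -0.98 (SE 0.28) from SA:ANH-vehicle and -0.90 (SE 0.29) from NS, neither called by edgeR. DESeq2 called the first of these (-0.97, SE 0.31) and not the second.

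The 3 small leucine-rich proteoglycans, which bind collagen fibrils and set their spacing, had a median log2 fold change of -0.77 from SA:ANH-vehicle. Their summed level was 24.1 ± 7.23 CPM in NS, 27.1 ± 7.14 in SA:ANH-vehicle and 16.1 ± 1.08 in SA:ANH-KDM5Ci. Of the 3, 1 was called lower than SA:ANH-vehicle and none lower than NS, where 1.62% and 2.11% of all tested genes were.

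Lum (gene 17022, chromosome 10, 97565501 to 97572703), lumican, was at 1.87, 2.82 and 2.74 CPM in NS, at 4.29, 2.38 and 2.91 in SA:ANH-vehicle, and at 1.54, 1.39 and 1.74 in SA:ANH-KDM5Ci. The lowest NS library and the highest inhibitor library were close, though they did not cross. The log2 fold change was -1.04 (SE 0.23) from SA:ANH-vehicle, which was called, and -0.65 (SE 0.24) from NS, which was not.

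Dcn (gene 13179, chromosome 10, 97479500 to 97518163), decorin, a neighbour of Lum, was at 9.24, 14.0 and 16.4 CPM in NS, at 18.1, 11.6 and 10.4 in SA:ANH-vehicle, and at 7.84, 8.66 and 8.64 in SA:ANH-KDM5Ci. The inhibitor libraries were tight and lay just under the lowest of the others. Decorin's log2 fold change was -0.68 (SE 0.25) from SA:ANH-vehicle and -0.65 (SE 0.25) from NS.

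Ogn (gene 18295, chromosome 13, 49608015 to 49624501), osteoglycin or mimecan, was at 5.04, 8.89 and 11.2 CPM in NS, at 12.9, 9.59 and 9.11 in SA:ANH-vehicle, and at 6.07, 5.48 and 6.99 in SA:ANH-KDM5Ci. NS replicate 1 was the lowest of all 9 libraries, so the inhibitor group and NS overlapped. The log2 fold change was -0.77 (SE 0.26) from SA:ANH-vehicle and -0.43 (SE 0.27) from NS.

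Counted over the 10 genes, SA:ANH-KDM5Ci against SA:ANH-vehicle gave 6 called lower (Foxc1, Foxc2, Foxd1, Tbx18, Slc22a6 and Lum), where 1.62% of all tested genes were called lower. The groups did not overlap for 10 of 10, where 11.0% of all tested genes were lower without overlap. The median log2 fold change was -0.95, with a range from -1.45 to -0.68, against 0.00 for all tested genes. Against NS, 4 were called lower (Foxc1, Foxd1, Tbx18 and Slc22a6), where 2.11% of all genes were, and 8 did not overlap, where 12% of all were lower without overlap. The median there was -0.82. Because these contrasts chose the genes, nothing is read from the distance between the members' counts and these shares. Both contrasts use the same 3 SA:ANH-KDM5Ci libraries, so they are not separate evidence.

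SA:ANH-vehicle against NS called 0 of the 10 by edgeR's quasi-likelihood test, where 0.0132% of all genes were called higher and none lower. At an unadjusted p under 0.05 there was 1, Foxc2, and DESeq2 and limma-voom called 0 as well. Log2 fold changes ran from -0.21 in Aldh1a2 to 0.69 in Foxc2 (SE 0.26), with a median of 0.10 and 9 of 10 above 0. Foxc2 was the 1 gene whose groups did not overlap, with SA:ANH-vehicle higher, where 8.34% of all genes were higher without overlap. Both groups hold the library that stands apart in its own group, and leaving out SA:ANH-vehicle replicate 1 moved the median to -0.11 with 7 of 10 below 0, while leaving out NS replicate 1 moved it to 0.00.

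**Figure D2:**
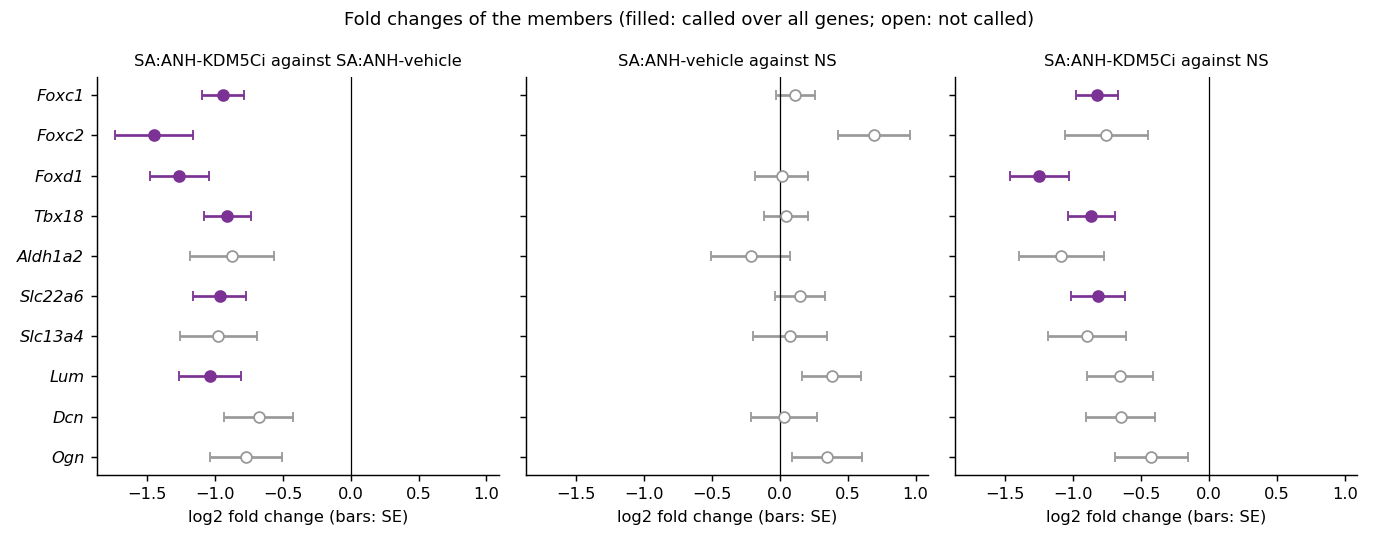
Log2 fold change (x axis; bars are 1 SE) of the 10 genes (y axis) in the 3 contrasts named above the panels; filled points were called over all 15144 genes and open points were not. All 10 points lie below 0 in both contrasts of SA:ANH-KDM5Ci, with 6 filled against SA:ANH-vehicle and 4 filled against NS, and none is filled in SA:ANH-vehicle against NS.

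Without SA:ANH-vehicle replicate 1, all 10 log2 fold changes of SA:ANH-KDM5Ci against SA:ANH-vehicle kept their sign. Their median was -0.73, with a range from -1.30 (Foxc2) to -0.39 (Dcn). Lum was at -0.75, Slc22a6 at -0.74, Tbx18 at -0.72, Slc13a4 at -0.68, Aldh1a2 at -0.60 and Ogn at -0.59. The calls went from 6 to 2, Foxc1 (-0.77, SE 0.15) and Foxd1 (-1.07, SE 0.22). Over all tested genes, the share called lower went from 1.62% to 0.861%. The same 2 genes were the calls without SA:ANH-KDM5Ci replicate 3, and without SA:ANH-KDM5Ci replicate 1 there were 3, those and Foxc2. Of all tested genes, 0.69% and 1.17% were called lower in those fits. Foxc1 and Foxd1 were called in all 9 fits that left out 1 library. Foxc2 lost its call in 4 of the 9, Tbx18 and Slc22a6 in 3 each, and Lum in 5.

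Without NS replicate 1, the contrast of SA:ANH-KDM5Ci with NS called 7 of the 10, now also Aldh1a2 (-1.33, SE 0.22), Slc13a4 (-1.10, SE 0.25) and Ogn (-0.69, SE 0.17), and the median moved to -0.97. In that fit 2.08% of all tested genes were called lower. Without NS replicate 3 the contrast called 1, Foxd1, at a median of -0.74, where 0.891% of all genes were called lower. The contrast called 2, Foxc1 and Foxd1, without NS replicate 2, without SA:ANH-KDM5Ci replicate 1 or without SA:ANH-KDM5Ci replicate 3. Of all genes, 1.11%, 0.931% and 1.11% were called lower in those fits. Foxd1 was the member called in all 9 such fits against NS.

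The spread between libraries of 1 group was itself large for these genes. Within-group coefficients of variation had medians of 24.2% in NS, 23.1% in SA:ANH-vehicle and 17.1% in SA:ANH-KDM5Ci, against 6.14%, 6.02% and 6.88% for all tested genes. The highest was Ogn in NS, at 37.2%, and the lowest Foxd1 in NS, at 3.01%. Counting error alone would give from 4.30% (Slc13a4 in SA:ANH-vehicle) to 20.1% (Foxc2 in SA:ANH-KDM5Ci). In 25 of the 30 pairs of gene and group the measured value exceeded the counting value, among them all 10 in SA:ANH-vehicle. The gene-wise dispersion of edgeR ranked from the 82.2nd percentile of all genes in Foxc1 to the 98.2nd in Aldh1a2, that is, biological coefficients of variation from 12.1% to 24.9%.

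The deviations had the same sign across most genes of a library. The summed level of the 10 was 51.1, 77.6 and 85.8 CPM in NS replicates 1, 2 and 3, 97.6, 66.3 and 62.2 in SA:ANH-vehicle, and 38.0, 40.0 and 44.5 in SA:ANH-KDM5Ci. On the log2 scale the median gene of SA:ANH-vehicle replicate 1 was 0.35 above its group mean, and that of NS replicate 1 was 0.42 below, while the median absolute deviation of all tested genes in these libraries was 0.07. In SA:ANH-KDM5Ci no library was on 1 side for all genes: Foxc1, Foxc2 and Foxd1 were highest in replicate 1, Tbx18, Slc22a6 and Dcn in replicate 2, and Aldh1a2, Slc13a4, Lum and Ogn in replicate 3.

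**Figure D3:**
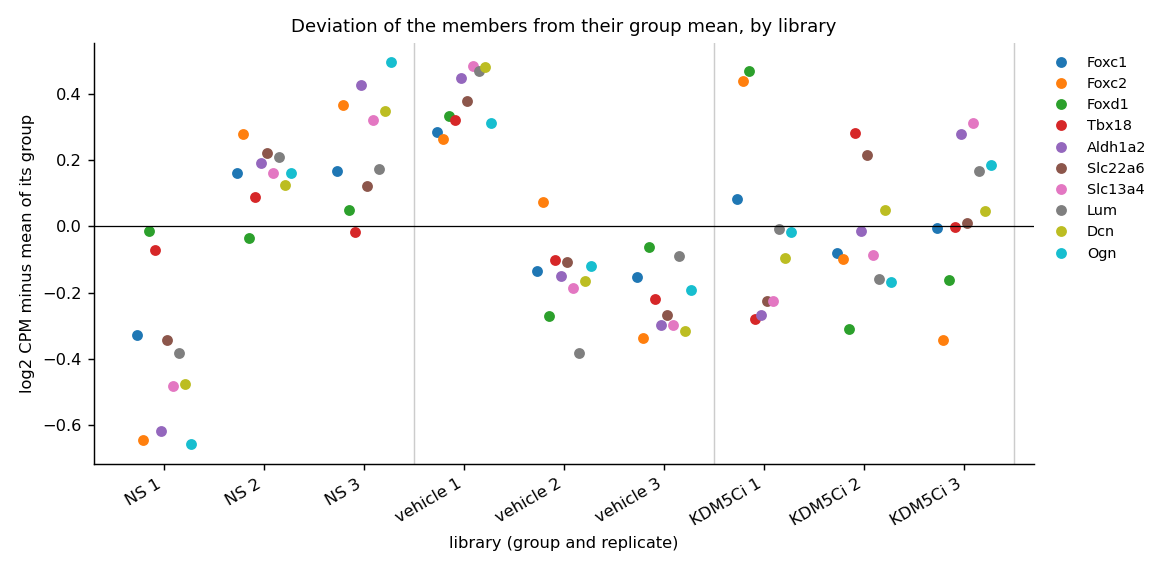
Log2 CPM minus the mean of its group (y axis) for each of the 10 genes (colours) in each library (x axis, group and replicate). All 10 points of SA:ANH-vehicle replicate 1 lie above 0 and those of NS replicate 1 below 0, while the points of the SA:ANH-KDM5Ci libraries lie on both sides.

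After the group means were taken out, each gene was set against the median of the other 9 over the 9 libraries. The Pearson correlation was 0.96 for Dcn, 0.95 for Foxc1, 0.92 for Slc13a4 and Aldh1a2, 0.88 for Ogn, 0.85 for Lum and 0.81 for Slc22a6. It was 0.68 for Foxc2, 0.50 for Tbx18 and 0.31 for Foxd1, and the last 2 were the genes whose NS libraries were nearly even. Over the 45 pairs the median was 0.72, from -0.14 (Foxd1 and Tbx18) to 0.98 (Aldh1a2 and Slc13a4). These values rest on 9 points that share library and dissection, and describe them only.

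By the same measure, the genes outside the set most like its median, at a mean of at least 1 CPM, were Aebp1 (0.99), Slc6a20a, Thbd, Itih2, Slc2a13, Wfikkn2, Prg4, Igf2, Colec12 and Ankrd34c (0.96). Aebp1, which binds collagen, Prg4, lubricin, and Igf2, a growth factor of meninges, are known products of fibroblasts or their matrix. Only Slc6a20a, Itih2 and Igf2 are on the lists described below, and which cells made the others was not tested. The 10 are the highest among all such genes over 9 libraries, so no theme is read from them. Igf2 had the same high and low libraries, at 43.9, 63.8 and 66.3 CPM in NS, 79.0, 49.5 and 49.7 in SA:ANH-vehicle and 33.8, 36.9 and 40.3 in SA:ANH-KDM5Ci. None of the 10 was called in SA:ANH-KDM5Ci against SA:ANH-vehicle; Itih2 was at -0.98 (SE 0.26, edgeR adjusted p = 0.0925), while Slc2a13, an inositol transporter at about 206 CPM in SA:ANH-vehicle, was at 0.06 (SE 0.06).

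Per kilobase of exon, the order of levels was led by Aldh1a2 in all groups, at 5.49 ± 1.87 CPM per kb in NS, 4.69 ± 1.35 in SA:ANH-vehicle and 2.55 ± 0.485 in SA:ANH-KDM5Ci. Ogn, Slc13a4, Dcn, Slc22a6, Foxc1, Lum and Tbx18 followed in that order in each group. Foxd1 and Foxc2 were last, at 0.479 ± 0.0144 and 0.459 ± 0.156 CPM per kb in NS, and exchanged places in the other groups (Foxc2 0.734 ± 0.150 and Foxd1 0.481 ± 0.105 in SA:ANH-vehicle). Neighbours in the order overlapped between libraries, except Tbx18 over Foxd1 in NS and, in SA:ANH-KDM5Ci, Ogn over Slc13a4, Dcn over Slc22a6, Lum over Tbx18 and Tbx18 over Foxc2. The exon lengths came from GENCODE, and for Foxc1 and Foxd1 they were 5844 and 5064 bases. Both are longer than the whole RefSeq gene at the positions given above, so these levels per kilobase may be too low. The places of Foxc1 and Foxd1 in the order, and the gap of Tbx18 over Foxd1, are therefore not settled.

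Other transcription factors of mesenchyme and meninges leaned the same way as the 4. This list and the gene lists below were chosen with earlier results of these data known. They were measured in the same libraries as the members, so they are not separate evidence. Their adjusted p-values and counts describe these libraries, and nothing is read from the distance between the counts and the shares of all genes. Of 27 transcription factors on this list, 24 were tested. Of these, 23 had a negative log2 fold change in SA:ANH-KDM5Ci against SA:ANH-vehicle, where 48.9% of all tested genes did. The median of the 24 was -0.55. Of the 24, 6 were called lower and 0 higher, where 1.62% and 0.891% of all genes were. Without SA:ANH-vehicle replicate 1 the median was -0.56, with 23 negative and 4 called. In that fit 0.861% of all genes were called lower, a share that applies to the lists below as well. Zic2, a zinc finger factor of forebrain and meninges, fell from 14.8 ± 1.75 to 8.13 ± 1.34 CPM (log2 -0.87 with SE 0.12, edgeR adjusted p = 0.00145). Tbx3, a T-box repressor, fell by 1.09 (SE 0.18, adjusted p = 0.00576), and Zic4 by 0.90 (SE 0.16, adjusted p = 0.00740). These 3 calls, and that of Foxq1, survived the loss of any single library.

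Foxq1 and Foxf2 are forkhead genes that lie near Foxc1 on chromosome 13. Foxq1 fell from 4.47 ± 0.242 to 2.66 ± 0.413 CPM (log2 -0.74 with SE 0.13, adjusted p = 0.00783). Foxf2, a factor of brain pericytes, was at 3.62 ± 0.362 and 2.38 ± 0.183 CPM (log2 -0.61 with SE 0.16, adjusted p = 0.0675) and fell against NS (-0.76, SE 0.16, adjusted p = 0.0163), a call lost when NS replicate 2 was left out, or SA:ANH-KDM5Ci replicate 3 (adjusted p at most 0.0833). Beside Foxc2 on chromosome 8, Foxf1 was at 0.41 (SE 0.30, adjusted p = 0.607), and Foxl1 had 0 to 4 counts and was not tested. Heyl, a Notch target, fell by 0.75 (adjusted p = 0.0416), a call lost when any of 5 libraries was left out (adjusted p then at most 0.180). Against NS, 7 of the 24 were called lower and none higher, where 2.11% and 1.86% of all genes were. The lower count was 3 without NS replicate 3, where 0.891% of all genes were called lower.

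The retinoic acid pathway did not move 1 way. Of 18 genes, 15 were tested, with a median of 0.10. Of these, 2 were called lower and 1 higher, where 1.62% and 0.891% of all genes were. Without SA:ANH-vehicle replicate 1 the median was -0.02 and the calls were the same 3 genes. Rara, a retinoic acid receptor, rose from 11.6 ± 0.366 to 17.2 ± 1.31 CPM (log2 0.56 with SE 0.08, adjusted p = 0.00272), and Rarg, another receptor, fell from 9.77 ± 1.02 to 6.50 ± 0.532 CPM (-0.59, SE 0.10, adjusted p = 0.00714). Both calls survived the loss of any single library and were made against NS too (0.65 and -0.56). Crabp2, which carries retinoic acid to its receptors, fell by 0.96 (SE 0.18, adjusted p = 0.0114), a call lost when SA:ANH-vehicle replicate 2 was left out, or SA:ANH-KDM5Ci replicate 1 (adjusted p at most 0.0528).

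Of 20 other solute carriers of the arachnoid barrier and their relatives, 16 were tested, with a median of -0.50, 14 negative (48.9% of all genes were) and 2 called lower (1.62% of all). Without SA:ANH-vehicle replicate 1, 17 were tested, with a median of -0.24, 14 negative and 0 called by edgeR. Slc22a8, the organic anion transporter OAT3, fell from 20.1 ± 3.66 to 13.2 ± 1.62 CPM (log2 -0.61 with SE 0.14, adjusted p = 0.0416), and Slc47a1, a proton-coupled exporter of organic cations, fell by 1.21 (SE 0.26, adjusted p = 0.0360). Each call was lost when any of 6 libraries was left out, among them SA:ANH-vehicle replicate 1 (adjusted p at most 0.127 and 0.174).

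Among 13 other small leucine-rich proteoglycans, 9 were tested, with a median of -0.31. Of these, 8 were negative (48.9% of all genes were) and 1 was called lower (1.62% of all). The median was -0.24 without SA:ANH-vehicle replicate 1, with 6 negative and 1 called. Prelp, which anchors basement membranes to collagen, fell from 14.1 ± 1.40 to 8.81 ± 0.986 CPM (log2 -0.68 with SE 0.12, adjusted p = 0.00775), and the call survived the loss of any single library (adjusted p at most 0.0492). The neighbours of Ogn on chromosome 13 were not called: Omd was at -0.31 (SE 0.22) and Aspn at 0.09 (SE 0.14). Of the neighbours of Lum on chromosome 10, Kera was listed at 0 in all libraries and Epyc had 0 to 2 counts, while Lum had 43 to 183.

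Of 35 other fibroblast and meningeal markers, 34 were in the table and 32 tested. Summed, they were at 707 to 1053 CPM in NS, 869 to 1168 in SA:ANH-vehicle and 639 to 757 in SA:ANH-KDM5Ci. Ptgds alone was at 332 to 564, 461 to 609 and 284 to 411 CPM in these groups, so a large part of each sum was 1 gene. Col1a2, a collagen gene, was at 16.9 to 29.1, 22.2 to 33.7 and 15.8 to 19.4 CPM, and so was present in every library. All 32 had a negative log2 fold change in SA:ANH-KDM5Ci against SA:ANH-vehicle, where 48.9% of all genes did, with a median of -0.45, and 3 were called lower, where 1.62% of all were. Without SA:ANH-vehicle replicate 1, 29 of the 32 were negative, with a median of -0.27, and 1 was called (Gjb2). Gjb2, a connexin of arachnoid cells, fell from 11.7 ± 3.22 to 4.54 ± 0.770 CPM (log2 -1.36 with SE 0.26, adjusted p = 0.0286), Fbln1, a matrix glycoprotein, by 0.90 (adjusted p = 0.0444) and Mgp, an inhibitor of calcification, by 0.74 (adjusted p = 0.0418). All 3 calls were lost when SA:ANH-vehicle replicate 2 was left out, or any of the 3 SA:ANH-KDM5Ci libraries (adjusted p at most 0.220). Those of Mgp and Fbln1 were also lost without SA:ANH-vehicle replicate 1 and without NS replicate 2, and that of Fbln1 without NS replicate 3. Col1a1 and Col1a2, the chains of type I collagen, were at -0.71 (SE 0.21, adjusted p = 0.127) and -0.65 (SE 0.23, adjusted p = 0.251). DESeq2 called 8 of the 32. In SA:ANH-vehicle against NS, 0 of the 96 tested genes of these 5 lists were called by edgeR's quasi-likelihood test, DESeq2 or limma-voom, and 6 had an unadjusted p under 0.05.

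**Figure D4:**
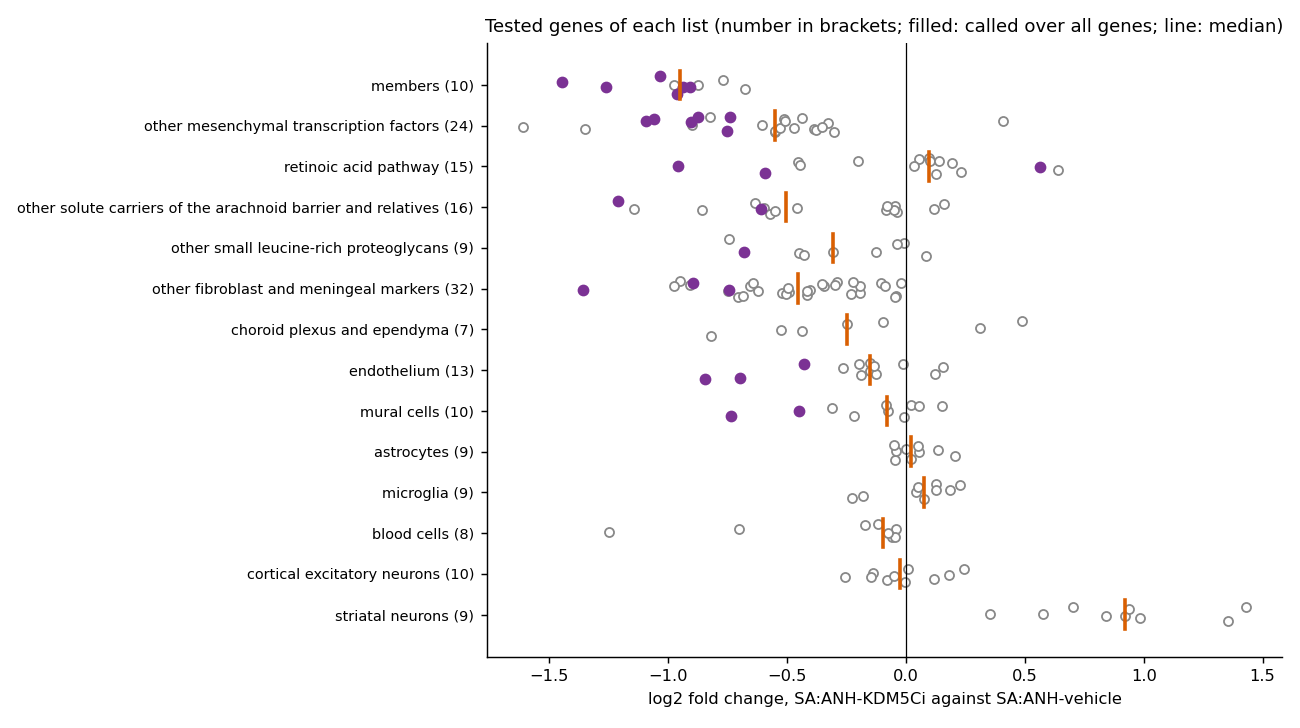
Log2 fold change in SA:ANH-KDM5Ci against SA:ANH-vehicle (x axis) of the tested genes of each list (y axis, number of genes in brackets); filled points were called over all genes, open points were not, and orange lines are list medians. The medians of the mesenchymal, transporter, proteoglycan and fibroblast lists lie at or below -0.31, the retinoic acid, glial and neuronal lists lie near 0, and the striatal list lies at 0.92 with no filled point.

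Markers of other cell types were measured beside these differences. Of 13 genes of choroid plexus and ependyma, 7 were tested and 0 called by edgeR, DESeq2 or limma-voom in any contrast (1 to 2 at an unadjusted p under 0.05), and their summed level was 7.32 to 8.09 CPM in NS, 7.08 to 11.9 in SA:ANH-vehicle and 6.10 to 9.32 in SA:ANH-KDM5Ci. Ttr, the defining transcript of choroid plexus, was at 0.0984 to 0.388 CPM in 8 libraries and at 2.79 in SA:ANH-vehicle replicate 1, the library that stands high for the 10 genes. Folr1 was at 0 to 0.199 CPM. Slc22a6 and Slc13a4 can also be made by choroid plexus, whose part in the high values of SA:ANH-vehicle replicate 1 was not tested.

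Of 13 endothelial genes, 3 were called lower in SA:ANH-KDM5Ci against SA:ANH-vehicle (Cldn5, Kdr and Slco1a4), where 1.62% of all genes were, at a list median of -0.15. Cldn5 was at -0.70 (SE 0.06), Kdr at -0.84 (SE 0.10) and Slco1a4 at -0.43 (SE 0.08), and 11 of the 13 were negative. The same 3 were called without SA:ANH-vehicle replicate 1, at a median of -0.14. They were also those called lower against NS, at -1.06, -1.12 and -0.32, where 2.11% of all genes were. The list median there was -0.14, with 9 of 13 negative. The list had summed levels of 302 to 318 CPM in NS, 301 to 319 in SA:ANH-vehicle and 245 to 295 in SA:ANH-KDM5Ci. Of 11 mural genes, 10 were tested and 2 called lower (Pdgfrb and Anpep), where 1.62% of all genes were, at a median of -0.08. Without SA:ANH-vehicle replicate 1 there was 1 (Pdgfrb) at a median of 0.03. Against NS there was also 1 (Pdgfrb), where 2.11% of all genes were called lower, at a median of 0.03. Summed mural levels were 170 to 191, 179 to 215 and 159 to 187 CPM in the same order; Acta2 was listed at 0 throughout. The medians of astrocyte, microglial and excitatory neuron markers were 0.02, 0.07 and -0.03. None of them was called by edgeR's quasi-likelihood test, while 1, 2 and 6 had an unadjusted p under 0.05 and DESeq2 called 0, 0 and 1. Blood cell markers, 8 genes of red cells and leukocytes, summed to 286 to 326 CPM in NS, 498 to 563 in SA:ANH-vehicle and 449 to 591 in SA:ANH-KDM5Ci. Of the 8, 2 were called higher in SA:ANH-vehicle against NS (Hbb-bs and Hbb-b1, the only genes called over the whole table). In SA:ANH-KDM5Ci against NS, 5 were called higher (those, Hba-a1, Hba-a2 and Alas2), where 1.86% of all genes were. In SA:ANH-KDM5Ci against SA:ANH-vehicle, 0 were called by edgeR or DESeq2, with 0 at an unadjusted p under 0.05. The globin genes are near-identical copies whose reads counting can split, so single ones are uncertain.

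Striatal neuron markers, a region beneath the frontal cortex, were positive for 9 of 9 genes in SA:ANH-KDM5Ci against SA:ANH-vehicle, at a median of 0.92 (1.02 without SA:ANH-vehicle replicate 1). Of these, 0 were called by edgeR's quasi-likelihood test, 1 by DESeq2 and 3 at an unadjusted p under 0.05. Their summed level was 233 to 385 CPM in NS, 256 to 335 in SA:ANH-vehicle and 310 to 731 in SA:ANH-KDM5Ci. The inhibitor group, lowest for the 10 meningeal genes, had 2 of its 3 libraries above all others for striatal markers. The part of the endothelial, mural, blood cell and striatal differences in the result was not tested.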

How the data were processed

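RNA sequencing of frozen medial prefrontal cortex gave 9 libraries in 3 groups of 3, grouped by their titles. Libraries were strand-specific, per the labels' protocols. The submitters' processing notes name Trimmomatic 0.32, Bowtie2 2.2.3 and TopHat2 2.0.13, with mm10 as the genome. The values the authors deposited are expected counts per gene (15.7% of values above 0 were whole within 1e-06); which tool counted them, and whether by strand, is not given in the sources used here. Genes that overlap on opposite strands therefore cannot be told apart.

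Expected counts were rounded. Genes passed edgeR's filterByExpr, libraries were scaled by TMM (factors 0.987 to 1.01), and edgeR's quasi-likelihood test (edgeR 4.0.16, R 4.3.3, robust moderation) was run with Benjamini-Hochberg adjustment over 15144 genes at 0.05. The SE is the size of the log2 fold change over the square root of F. Deviations use log2 CPM with a prior count of 2. Symbols came from RefSeq (GRCm38.p6), for 32947 of 36172 features, and exon lengths from GENCODE. Depth was 29845097 to 42196472 counts, and a count of 0 allows up to 3 counts, or 0.101 CPM in the shallowest library, for counting error only. The test was also run on simulated counts, drawn for each gene separately from the spread of this fit. Such counts do not cover deviations that many genes of a library share.

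Members and gene lists were chosen with earlier results of these data known. Genes named from a list are those called in any contrast, up to 6 of lowest p, or else the 2 of lowest p. Neighbouring genes, Col1a1, Col1a2, Ptgds, Ttr, Folr1 and Kdm5c were named in addition, after their values were seen. As alternatives the fit was repeated with each library left out, with a replicate block, with 2 groups only, without TMM, without robust moderation, with other filters, at a threshold of 0.1, with limma-voom (limma 3.58.1), and with DESeq2 1.42.0 or its size factors. Replicate numbers were not used to pair the samples in the main fit.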

Additional observations from a re-analysis of the deposited data

How the results depend on the processing

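For SA:ANH-KDM5Ci against SA:ANH-vehicle, 6 members were called; leaving out single libraries gave 2 to 7, and the other 10 settings gave 5 to 7. Against NS, 4 were called, with 1 to 7 and 3 to 5. In SA:ANH-vehicle against NS, 0 were called under every setting run. Genes called over the whole table were 380, 2 and 601 in the 3 contrasts, and 203 to 429, 2 to 17 and 269 to 747 with a library left out. A threshold of 0.1 gave 593, 15 and 1017. For SA:ANH-vehicle against NS, the count was 11 without TMM, 81 with DESeq2, 11 without the filter and 17 with 2 groups only; the cause was not tested beyond these settings. All 10 members stayed negative in both contrasts of SA:ANH-KDM5Ci under each setting run.

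Changes of sign occurred only in SA:ANH-vehicle against NS, where no member was called. Without NS replicate 1, log2 fold changes were -0.03 for Foxc1, -0.01 for Slc22a6, -0.13 for Slc13a4 and -0.17 for Dcn. Without SA:ANH-vehicle replicate 1, they were -0.05 for Foxc1, -0.18 for Foxd1, -0.15 for Tbx18, -0.07 for Slc22a6, -0.22 for Slc13a4 and -0.26 for Dcn. Foxd1 was at -0.01 without NS replicate 2. The highest values with a library left out were 0.19 for Foxc1, 0.14 for Foxd1, 0.15 for Tbx18, 0.27 for Slc22a6, 0.23 for Slc13a4 and 0.21 for Dcn.

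Alternatives for the other gene lists were chosen after seeing the data. Their lower calls in SA:ANH-KDM5Ci against SA:ANH-vehicle ran from 4 to 9 with a library left out for the mesenchymal transcription factors, 1 to 2 for retinoic acid, 0 to 5 for solute carriers and for fibroblast markers, and 1 throughout for proteoglycans.

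Deviations of same-numbered samples correlated from -0.14 to 0.24, over 0.1 in 3 of 9 pairs. Between SA:ANH-vehicle and SA:ANH-KDM5Ci the same-numbered values were 0.24, 0.08 and 0.18 for replicates 1, 2 and 3. Differently numbered libraries of these groups ran from -0.25 to 0.09. Whether same-numbered libraries shared a batch cannot be told from these values. With the replicate block, 363, 2 and 708 genes were called, with 5, 0 and 3 members; Lum lost its call against SA:ANH-vehicle and Slc22a6 against NS, Foxd1 was at -0.01 in SA:ANH-vehicle against NS, and the solute carrier and fibroblast lists had 0 calls against SA:ANH-vehicle.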
